A study of Mus musculus with 51 samples.

Results

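Frizzled receptors and Wnt ligands were followed as a group of 10 genes, 8 receptors (Fzd1, Fzd2, Fzd3, Fzd4, Fzd5, Fzd7, Fzd8 and Fzd9) and 2 ligands (Wnt5a and Wnt7b). They were chosen by symbol from the 24421 genes counted, with earlier results of these data known. RNA was sequenced from the prefrontal cortex of 17 C57BL/6J mice, adult males 8 weeks of age when purchased, as 3 preparations of each mouse, giving 51 libraries. Astrocytes were captured with ACSA2 microbeads, microglia were then taken from the ACSA2- fraction with CD11b microbeads, and total homogenate was a portion of the tissue suspension set aside before dissociation. The 9 mice given chronic intermittent ethanol vapor (CIE) spent 16 hours a day in a vapor chamber during 4 weekly cycles after an injection of ethanol and pyrazole, an inhibitor of alcohol dehydrogenase. The 8 control mice received saline, the same pyrazole and fresh air, so pyrazole and the chamber were common to both groups. Each library of a group came from a different mouse, and the 3 preparations share mice.

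Wnt ligands are secreted lipid-modified glycoproteins that bind the cysteine-rich outer domain of Frizzled proteins, which are receptors that span the cell membrane several times. With the co-receptors Lrp5 or Lrp6, Frizzled receptors stabilise beta-catenin, which acts with Tcf and Lef factors in the nucleus. Without them they signal through the planar cell polarity and calcium branches, and Wnt5a is the ligand best known for these. In the brain Wnt7a and Wnt7b are known for their action on the endothelium of the blood-brain barrier, and Fzd4 is the receptor of norrin (Ndp) in vessels.

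Astrocyte libraries held 2082289 to 10041788 counts assigned to genes, those of microglia 571878 to 6026453 and those of homogenate 5042926 to 15594154. Microglia markers summed to 22802 to 34128 CPM, a count scaled to the size of its library, in control microglia libraries and to 1492 to 6224 CPM in control astrocyte libraries. Astrocyte markers summed to 11229 to 20022 CPM in control astrocyte libraries and to 221 to 705 CPM in control microglia libraries. The 8 oligodendrocyte markers summed to 17249 to 24680 CPM in control astrocyte libraries, so the astrocyte preparation held oligodendrocyte RNA as well, whereas the neuron markers summed to 54.1 to 357 CPM there. In a preparation of many cells, fewer cells of a type and less RNA per cell cannot be told apart.

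In control mice most of these genes were at their highest in the astrocyte preparation. Of the 10 genes, 8 were higher in control astrocytes than in control total homogenate and 2, Fzd3 and Wnt5a, were lower (edgeR quasi-likelihood test, Benjamini-Hochberg adjusted p under 0.05). In that comparison 78.8% of all 13672 genes tested passed, 41% higher and 37.8% lower in astrocytes. The levels that follow are CPM scaled over all 51 libraries. Fzd2 stood at 102 ± 19.2 CPM in control astrocytes, 1.68 ± 1.40 CPM in control microglia and 15.1 ± 3.0 CPM in control homogenate (SD, n = 8 each). It was 7.23-fold higher in astrocytes than in homogenate (log2 difference 2.85, standard error 0.148, adjusted p = 1.70e-16) and 70.5-fold higher than in microglia. Fzd9 had the same order, with 50.4 ± 11.5, 1.97 ± 1.19 and 9.90 ± 1.32 CPM. Fzd1 was less concentrated in astrocytes, at 59.8 ± 11.8 CPM against 25.0 ± 4.07 CPM in homogenate (log2 difference 1.34, standard error 0.131, adjusted p = 1.92e-10) and 2.79 ± 1.86 CPM in microglia. In CPM scaled within each preparation, median marker sums in control astrocyte and homogenate libraries were 16888 and 6571 for astrocytes. They were 21229 and 2134 for oligodendrocytes, 1416 and 199 for pericytes, and 88.4 and 6724 for neurons. Further medians were 3722 and 730 for microglia, 1558 and 351 for endothelium and 116 and 34.0 for border macrophages. Those of oligodendrocyte precursors were 212 and 181, and those of neutrophils 2.19 and 15.1. Oligodendrocyte, pericyte, microglia, endothelial and border macrophage markers were thus more concentrated in the astrocyte libraries than astrocyte markers. Precursor, neuron and neutrophil markers were not. Which cells of the astrocyte preparation held the transcripts of these genes was not tested.

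Fzd3, a receptor known for its part in axon guidance, had the astrocyte and homogenate steps reversed. It was at 195 ± 32.0 CPM in control homogenate, 45.5 ± 7.24 CPM in astrocytes and 7.19 ± 3.98 CPM in microglia, a log2 difference of -2.01 between astrocytes and homogenate (standard error 0.146, adjusted p = 3.64e-13). The neuron markers summed to 6161 to 8356 CPM in the control homogenate libraries. Their part in the level of Fzd3 was not tested.

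A second set of receptors was shared by the glial preparations. Fzd5 was at 20.9 ± 3.23 CPM in control astrocytes and 22 ± 8.74 CPM in control microglia, against 3.44 ± 1.08 CPM in homogenate. Astrocytes and microglia did not differ in Fzd5 beyond their spread (log2 difference -0.09, standard error 0.194, adjusted p = 0.681), and each exceeded homogenate, by 2.68 and 2.77 on the log2 scale. Fzd4 and Fzd7 were highest in astrocytes (35.8 ± 4.88 and 42.3 ± 7.24 CPM), next in microglia (22.5 ± 8.00 and 24.3 ± 5.27 CPM) and lowest in homogenate (10.1 ± 1.75 and 11.5 ± 3.80 CPM), each step past the threshold. Endothelial markers ran from 1059 to 2435 CPM in control astrocyte libraries, from 284 to 1744 CPM in microglia and from 290 to 487 CPM in homogenate. Their part in the level of Fzd4 was not tested. Fzd8 was at 16.8 ± 2.58 CPM in astrocytes, and its 5.76 ± 2.51 CPM in microglia did not differ from the 4.95 ± 0.520 CPM in homogenate beyond the spread (log2 difference 0.33, standard error 0.176, adjusted p = 0.0847, and 0.0210 without control mouse 05).

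The ligands separated from each other. Wnt7b was mainly in the astrocyte and homogenate preparations, at 86.8 ± 12.6 CPM in control astrocytes, 51.5 ± 5.88 CPM in homogenate and 2.23 ± 1.66 CPM in microglia. Wnt5a was scarce everywhere, highest in homogenate (11.1 ± 3.05 CPM), lower in astrocytes (7.54 ± 2.21 CPM, log2 difference -0.54, standard error 0.194, adjusted p = 0.0136) and at 2.43 ± 1.56 CPM in microglia. Wnt7a, the closest relative of Wnt7b, was at 62.8 ± 11.3 CPM in control astrocytes, 15.9 ± 1.89 CPM in homogenate and 0.607 ± 0.721 CPM in microglia.

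In all, control microglia exceeded control homogenate for 3 of the 10 genes (Fzd4, Fzd5 and Fzd7) and fell below it for 6 (84.4% of all genes tested passed in that comparison, 39.8% higher and 44.6% lower). Control astrocytes exceeded control microglia for 9 of the 10 and fell below them for 0, against 71.9% of all genes passing (36.6% higher and 35.3% lower in astrocytes). The exception was Fzd5. Fzd6 and Fzd10, the remaining members of the receptor family, were also higher in astrocytes than in homogenate, by 1.89 and 1.5 on the log2 scale (standard errors 0.212 and 0.253, adjusted p = 3.77e-09 and 4.83e-06).

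**Figure D1:**
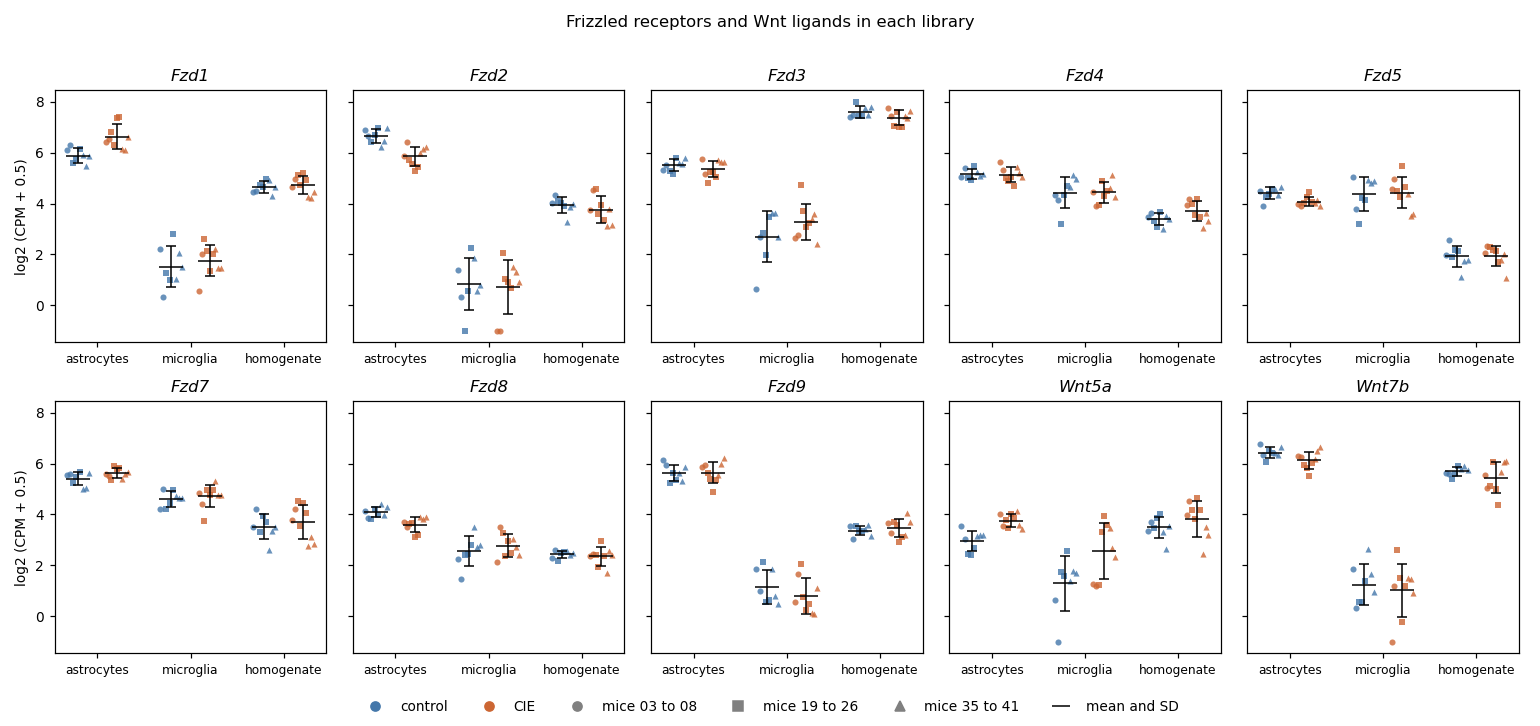
Level of each gene in each of the 51 libraries, as log2 (CPM + 0.5) on the scale of all libraries, by preparation, with control in blue, CIE in orange, the range of mouse numbers by marker shape, and black bars for the mean and SD of the plotted log2 values. Fzd2 and Fzd9 sit highest in astrocytes and near 0 in microglia, Fzd3 is highest in homogenate, and the astrocyte columns of Fzd1 and Fzd2 shift in opposite directions with CIE.

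Long genes collect more reads, so levels of the 10 genes were compared with each other per kilobase of exon. In control astrocytes Fzd2 led with 28 ± 5.24 CPM per kilobase (SD, n = 8), followed by Fzd9 (22 ± 5.04), Wnt7b (17.7 ± 2.56), Fzd1 (14.2 ± 2.82) and Fzd7 (9.32 ± 1.60). The ranges of each of these neighbours overlapped across the 8 mice. Fzd7 did not overlap Fzd4 (5.33 ± 0.726), nor Fzd4 the closely spaced Fzd3 (3.56 ± 0.565), Fzd5 (3.02 ± 0.467) and Fzd8 (2.81 ± 0.432). Wnt5a came last at 0.964 ± 0.282 CPM per kilobase and did not overlap Fzd8. In control microglia Fzd7 (5.37 ± 1.16), Fzd4 (3.36 ± 1.19) and Fzd5 (3.18 ± 1.26) led among the 10 genes, and each overlapped its neighbour. Fzd6, outside the 10 genes, was at 5.17 ± 3.10 in control microglia and at 9.77 ± 2.97 in control astrocytes. Wnt7a, also outside them, was at 19.8 ± 3.55 in control astrocytes. In control homogenate Fzd3 (15.3 ± 2.5) and Wnt7b (10.5 ± 1.20) stood clear of each other and of Fzd1 (5.95 ± 0.969).

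The mean levels of the 8 receptors, added per kilobase, came to 88.3 CPM per kilobase in control astrocytes and 87.0 in CIE astrocytes, so the sum was close while its makeup was not. Fzd2 made up 31.7% of it in control and 18.5% in CIE astrocytes, and Fzd1 went from 16.1% to 28.5%. Fzd9 held 24.9% and 25.7%. In microglia the sum was 15.4 in control and 16.2 in CIE mice, with Fzd7 at 34.8% and 36.6%, and in homogenate it was 35 and 34.3, with Fzd3 at 43.6% and 38.3%.

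**Figure D2:**
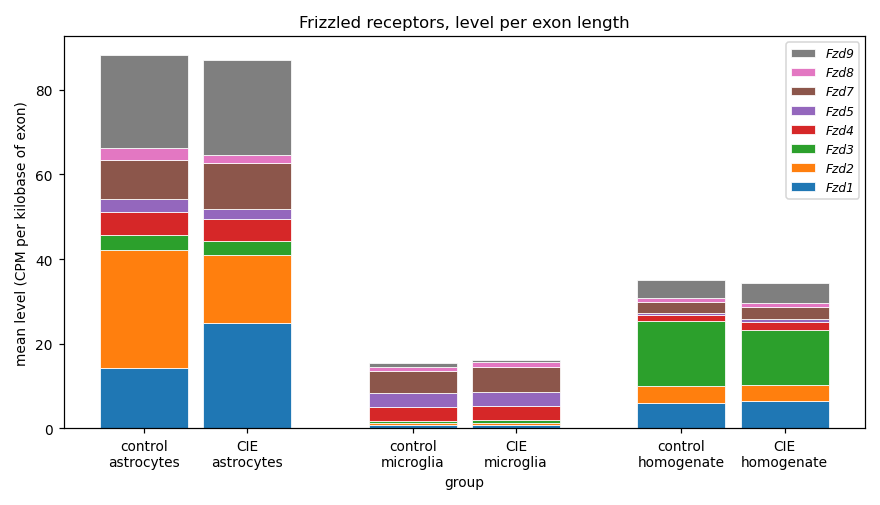
Mean level of each of the 8 Frizzled receptors in CPM per kilobase of exon, stacked by group, for control and CIE mice in each preparation (8 control and 9 CIE libraries a preparation). The 2 astrocyte bars are of near equal height (88.3 and 87.0), with less Fzd2 and more Fzd1 in the CIE bar.

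In astrocytes CIE mice had more Fzd1 and Wnt5a and less Fzd2 and Fzd8 than control mice. Of the 10 genes tested, 2 were higher and 2 lower in CIE astrocytes at an adjusted p under 0.05 over 12878 genes. Among all genes tested 5.13% passed, 2.91% higher and 2.22% lower. Because the 10 genes were chosen with earlier results of these data known, their count beside that share is a description only. Among the 8 receptors 1 rose, 2 fell and 5 did not pass, with a median log2 fold change of -0.09 against 0.0033 over all genes. Fzd6 and Fzd10, the 2 receptors of the family outside the 10 genes, were tested in astrocytes too and 0 passed (median -0.15). In none of the 3 preparations did any of the 10 genes have groups free of overlap, which 0.396% of genes tested had in astrocytes, 0.465% in microglia and 0.093% in homogenate. From here, CPM are scaled within a preparation, and values of a group are given as lowest, median and highest.

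Fzd1, a receptor coded by a gene with a single exon on mm10 chromosome 5 (4753839 to 4758035, minus strand), was at 48.0, 64.3 and 88.8 CPM in the 8 control astrocyte libraries and at 74.3, 108 and 187 CPM in the 9 CIE libraries. The groups overlapped, but 9 of 9 CIE mice were above the control median and 6 were above every control mouse. The means were 66.7 ± 14 and 116 ± 42.9 CPM, a rise of 1.75-fold (log2 fold change 0.81, standard error 0.189, adjusted p = 0.0197). Spread in the CIE group was wide, because mice 25 and 26 reached 185 and 187 CPM and the next highest, mouse 23, 123 CPM.

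Fzd2, a gene with a single exon on chromosome 11 (102604396 to 102608058, plus strand), moved the other way. It was at 81.1, 114 and 141 CPM in control and at 43.7, 64.4 and 97.6 CPM in CIE astrocyte libraries. No CIE mouse reached the control median and 7 of 9 lay below every control mouse. The means were 114 ± 22.4 and 65.8 ± 18.0 CPM, a fall to 0.573 of the control level (log2 fold change -0.80, standard error 0.152, adjusted p = 0.00685). The lowest CIE values were those of mice 25 and 26 (43.7 and 47.5 CPM), the same mice with the most Fzd1.

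Read together within a library, where the sequencing depth cancels, the ratio of Fzd1 counts to Fzd2 counts was 0.464, 0.562 and 0.796 in control astrocytes and 0.951, 1.48 and 4.24 in CIE astrocytes. These ranges did not meet, and in counts Fzd1 exceeded Fzd2 in 0 of 8 control and 8 of 9 CIE libraries. The counts were not divided by exon length (4.197 kilobases for Fzd1 and 3.663 for Fzd2). A ratio of 1 is therefore not an equal level per kilobase, while length does not affect whether the ranges meet. The ratio was formed after the values of both genes were known and is given as a description. In total homogenate the same ratio was 1.11, 1.57 and 3.30 in control and 1.34, 2.30 and 3.02 in CIE libraries, and those ranges overlapped.

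**Figure D3:**
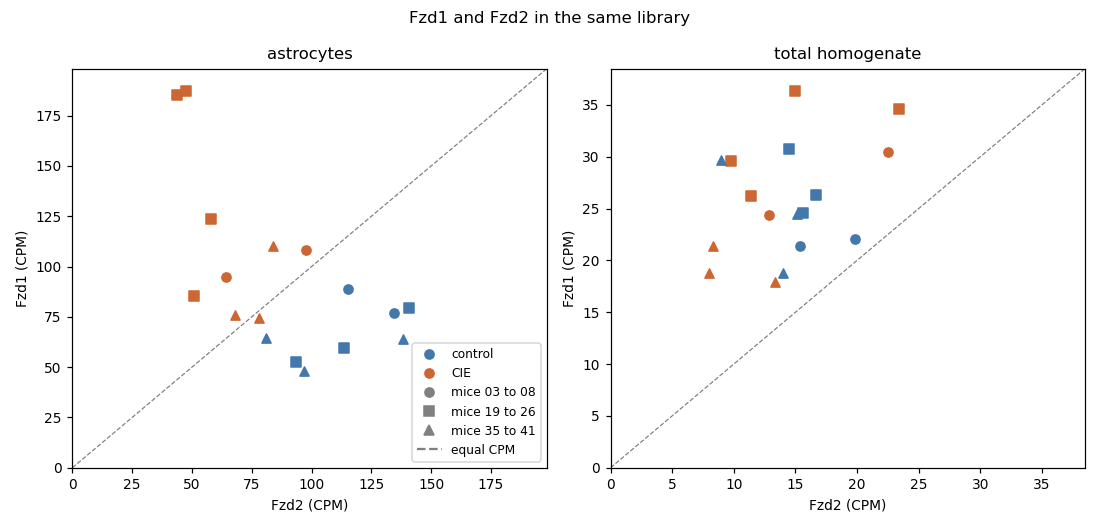
Fzd1 against Fzd2 in CPM scaled within a preparation, 1 point per mouse, for astrocytes (left) and total homogenate (right), with control in blue, CIE in orange, marker shape for the range of mouse numbers and a dashed line of equal CPM. In astrocytes the 8 control mice lie below the line and 8 of the 9 CIE mice above it, while in homogenate both groups lie above it. CPM are not divided by exon length here, so the line is not one of equal level per kilobase.

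Since Fzd1 and Fzd2 moved in opposite directions and are close relatives, their coding sequences were compared to see how far reads of one could be counted for the other. The sequences were 82% identical, the highest of the receptor pairs compared, and their longest shared run was 47 bases. With reads of 150 bases, the most alike window of that length in the alignment of Fzd1 and Fzd2 held 5 differences, and the median window held 22. The most alike window of Fzd1 and Fzd7 held 11 differences. The stretch around the longest shared run is shown for the 3 genes from the GRCm38 (mm10) genome, 5′ to 3′ on the coding strand, with capitals at bases that differ from Fzd1. It lies on chr5:4756301-4756407 (minus strand) for Fzd1, chr11:102605710-102605816 (plus) for Fzd2 and chr1:59483944-59484050 (plus) for Fzd7.
Fzd1: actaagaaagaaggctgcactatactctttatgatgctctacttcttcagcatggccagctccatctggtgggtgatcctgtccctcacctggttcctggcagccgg
Fzd2: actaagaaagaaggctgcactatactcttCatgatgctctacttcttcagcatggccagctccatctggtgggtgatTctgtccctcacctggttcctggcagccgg
Fzd7: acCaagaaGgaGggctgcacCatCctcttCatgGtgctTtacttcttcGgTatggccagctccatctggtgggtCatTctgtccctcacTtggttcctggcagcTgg
Fzd2 differs from Fzd1 at 2 of these 107 bases and Fzd7 at 14. How many reads, if any, were shared between the genes cannot be seen in the counts.

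Fzd8, on chromosome 18, was the second receptor to fall in astrocytes. It was at 15.3, 18.3 and 23 CPM in control and at 9.06, 13.4 and 16.4 CPM in CIE libraries, with 7 of 9 CIE mice below every control mouse. The means were 18.6 ± 2.72 and 13.2 ± 2.54 CPM (log2 fold change -0.49, standard error 0.125, adjusted p = 0.0268). The call was lost without CIE mouse 26 (adjusted p = 0.0528). Fzd5, its nearest relative among these receptors with 76.3% identical coding bases, was at 16.6, 23.4 and 27.2 CPM in control and 16.3, 17.3 and 24.1 CPM in CIE libraries. The Fzd5 difference did not pass (log2 fold change -0.33, standard error 0.103, adjusted p = 0.0632), though it did with DESeq2 (log2 fold change -0.34, adjusted p = 0.0361) and with mouse number range in the model (-0.34, adjusted p = 0.0391). Both alternatives called more of all genes, 630 and 589 higher and 527 and 540 lower, against 375 and 286 in the main fit.

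Fzd7, the third member of the Fzd1 and Fzd2 branch, was at 34.9, 49.7 and 56.6 CPM in control and 44.4, 52.9 and 64.2 CPM in CIE astrocytes (log2 fold change 0.21, standard error 0.109, adjusted p = 0.268). Fzd9, as abundant per kilobase as the leading receptors, had medians of 53.2 and 53.9 CPM and a log2 fold change of 0.03 with an interval of 2 standard errors from -0.30 to 0.36. Fzd4 (log2 fold change -0.04, interval -0.28 to 0.20) and Fzd3 (-0.14, interval -0.40 to 0.12) did not pass either.

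Wnt5a rose in astrocytes from a low level. It is coded on chromosome 14 (28504750 to 28527448, plus strand) by 7 exon blocks, and stood at 5.23, 8.91 and 12.8 CPM in control and 11.4, 14.9 and 18.3 CPM in CIE libraries. The groups overlapped only through control mouse 03, at 12.8 CPM, and 9 of 9 CIE mice were above the control median. The means were 8.39 ± 2.48 and 14.7 ± 2.67 CPM, a rise of 1.82-fold (log2 fold change 0.86, standard error 0.163, adjusted p = 0.00685), resting on 277 counts in control and 838 in CIE libraries. Wnt7b did not pass, at 74.0, 94.4 and 121 CPM in control and 51.2, 77.4 and 111 CPM in CIE libraries (log2 fold change -0.28, standard error 0.129, adjusted p = 0.221).

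Markers of other cells in the same astrocyte libraries are given beside these changes. Of the astrocyte markers 1 of 8 rose (Gjb6, a gap junction protein, log2 fold change 0.66, adjusted p = 0.00891), and the other 7 had log2 fold changes below 0 that did not pass, with a median of -0.16 over the list. Their sum was 11229 to 20022 CPM in control (median 16888) and 10230 to 17328 CPM in CIE libraries (median 13873). Of the oligodendrocyte markers 1 of 8 rose (Mobp, a myelin protein, 1.03, adjusted p = 0.0127), with sums of 17249 to 24680 and 18065 to 25220 CPM. In that list 7 of 8 had log2 fold changes above 0 (median 0.20). Of the precursor markers 1 of 4 fell (Gpr17, -1.40, adjusted p = 0.0488), with sums of 151 to 398 and 141 to 344 CPM and 1 of 4 above 0 (median -0.89). Border macrophage markers summed to 54.9 to 221 CPM in control and 87.1 to 327 CPM in CIE libraries, with 2 of 7 higher (Cd163 and Siglec1). Of these markers 6 of 7 had log2 fold changes above 0 (median 0.80), and 4 that were higher had an unadjusted p under 0.05. None of the microglia, neuron, endothelial or pericyte markers tested passed in astrocytes, though 7 of 7 neuron markers tested had log2 fold changes below 0 (median -0.58). Neutrophil markers, all below the filter, summed to 0.918 to 13.3 CPM in control (median 2.19) and 3.43 to 187 CPM in CIE libraries (median 13.2). The part of these cells in the changes of Fzd1, Fzd2, Fzd8 and Wnt5a was not tested.

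The mice carry numbers in 3 ranges (03 to 08, 19 to 26 and 35 to 41), each with control and CIE mice, and the labels do not say what the ranges are. In astrocytes the difference of mean log2 CPM kept its sign in each range for all 4 genes. For Fzd1 it was 0.30, 1.13 and 0.54, for Fzd2 -0.65, -1.19 and -0.43, for Fzd8 -0.40, -0.63 and -0.36 and for Wnt5a 0.49, 1.27 and 0.54. The middle range showed the widest difference for each of them. Without mice 19 to 26, which left 5 control and 5 CIE mice, the log2 fold changes were 0.43 for Fzd1, -0.54 for Fzd2, -0.38 for Fzd8 and 0.56 for Wnt5a, and 0 of the 10 genes passed (0 of all genes tested passed in that fit).

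In microglia no change was called among the 5 genes that could be tested. The filter on low counts kept Fzd3, Fzd4, Fzd5, Fzd7 and Fzd8 and removed Fzd1, Fzd2, Fzd9, Wnt5a and Wnt7b. Among the 10761 genes tested in microglia 3.47% passed, 2.31% higher and 1.15% lower. Fzd7 had the highest level per kilobase of the 8 receptors in this preparation. It was at 16.9, 21.1 and 29.4 CPM in control and 11.8, 23.9 and 36.6 CPM in CIE libraries (log2 fold change 0.21, interval -0.11 to 0.52). For Fzd4 the interval was -0.42 to 0.39, for Fzd5 -0.52 to 0.57, for Fzd8 -0.41 to 0.60 and for Fzd3 -0.26 to 1.05, so a log2 change of 1 in either direction lay outside the interval for Fzd4, Fzd5, Fzd7 and Fzd8, while for Fzd3 a rise of 1 lay inside it and a fall of 1 outside. At an unadjusted p under 0.05 there were 0 of these 5, and DESeq2 called none of them. The Fzd8 interval rests on 110 control and 129 CIE counts. Its standard error of 0.252 does not give the unadjusted p of 0.984 from the edgeR test, so that interval is approximate.

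Wnt5a in microglia was below the filter yet differed in counts. It had 45 counts over the 8 control and 179 over the 9 CIE libraries, or 0, 2.30 and 4.87 CPM and 1.68, 5.33 and 13.3 CPM. The CIE values fell apart, since mice 06, 08 and 23 lay under 2 CPM with 1 or 2 counts each, inside the control range, and mice 24, 25, 26, 39 and 40 lay above every control mouse. Without the filter the log2 fold change was 1.64 (standard error 0.425, adjusted p = 0.0425), and with DESeq2 1.63 (adjusted p = 0.0114). In the same libraries 7 of 7 neutrophil markers tested were higher in CIE mice, their sum running from 82.7 to 214 CPM in control and from 79.5 to 5868 CPM in CIE libraries. Oligodendrocyte markers had log2 fold changes above 0 for 8 of 8 (median 0.71). Of these, Mobp passed (1.70, adjusted p = 0.00530) and 5 in all had an unadjusted p under 0.05. The oligodendrocyte sum was 1936 to 6588 CPM in control (median 3758) and 2143 to 8511 CPM in CIE libraries (median 6156). Microglia markers had log2 fold changes below 0 for 8 of 8 (median -0.26), of which Fcrls passed (-1.06, adjusted p = 0.00864) and 5 in all had an unadjusted p under 0.05. Their sum was 22802 to 34128 CPM in control and 16626 to 24513 CPM in CIE libraries. The part of these cells in the level of Wnt5a, and in the values of the receptors, was not tested. The other 4 genes below the filter ranged from 0 to 5.85 CPM in microglia libraries. Astrocyte markers summed to 221 to 1247 CPM in the same libraries, and their part in these levels was not tested.

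In total homogenate 0 of the 10 genes passed in either direction, against 0.25% of all 13982 genes tested (0.193% higher and 0.0572% lower). At an unadjusted p under 0.05 there was 1, Fzd4, at 7.40, 10.2 and 12.4 CPM in control and 7.72, 11.8 and 17.7 CPM in CIE libraries (log2 fold change 0.36, standard error 0.164, adjusted p = 0.510), and DESeq2 called none. Fzd1 was at 18.8, 24.5 and 30.7 CPM in control and 17.9, 26.2 and 36.3 CPM in CIE homogenate (log2 fold change 0.10, interval -0.18 to 0.39). Fzd2 was at 8.98, 15.3 and 19.9 CPM and 8.02, 12.9 and 23.4 CPM (-0.11, interval -0.53 to 0.31). Wnt5a was at 5.70, 10.8 and 15.7 CPM and 4.84, 15.1 and 24.5 CPM (0.43, interval -0.08 to 0.94). In astrocytes the intervals were 0.43 to 1.18 for Fzd1, -1.11 to -0.50 for Fzd2 and 0.54 to 1.19 for Wnt5a. Those of Fzd2 and Wnt5a overlapped their homogenate intervals, and that of Fzd1 did not. A difference in response is tested by the direct comparison that follows, in which no gene of the 10 passed.

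Whether the CIE response differed between preparations was tested directly in 1 model of all 51 libraries, in which all 10 genes were fitted, and none passed. In that test 0.00695% of 14379 genes passed between astrocytes and homogenate, 0.828% between microglia and homogenate and 0.529% between microglia and astrocytes. The response of Fzd1 was larger in astrocytes than in homogenate by 0.71 on the log2 scale (standard error 0.230, adjusted p = 0.658), and that of Fzd2 was more negative in astrocytes, with a difference of -0.68 (standard error 0.252, adjusted p = 0.776). For Wnt5a the response in microglia exceeded that in homogenate by 1.24 (standard error 0.452, adjusted p = 0.214). These 3 and Fzd8 between microglia and astrocytes (0.54, standard error 0.259, adjusted p = 0.436) had an unadjusted p under 0.05. The calls in astrocytes are therefore not shown to be particular to astrocytes.

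**Figure D4:**
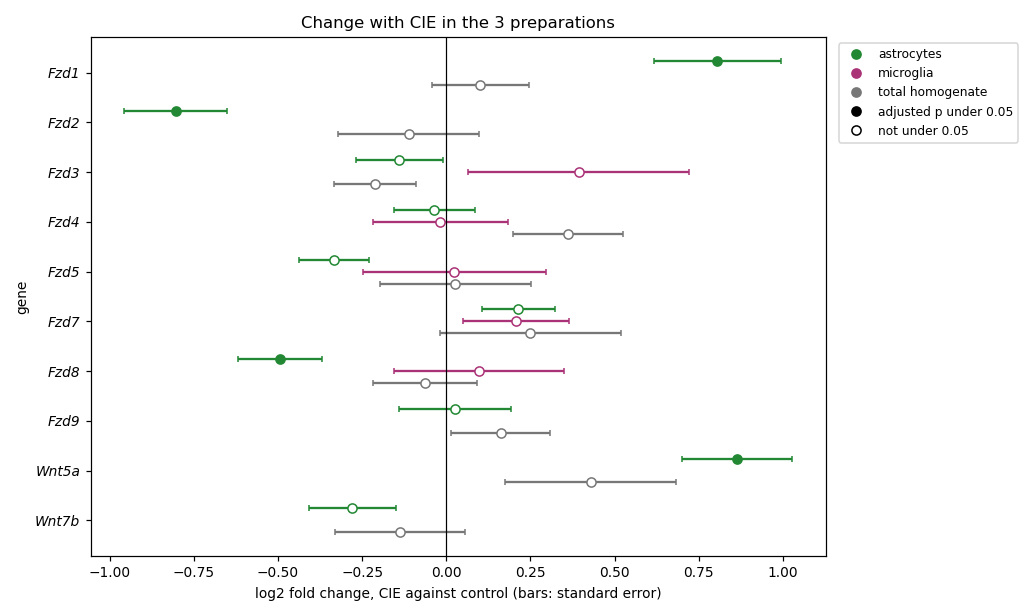
Log2 fold change of CIE against control with its standard error for each gene in astrocytes (green), microglia (purple) and total homogenate (grey), filled where the adjusted p was under 0.05 and absent where the gene was not tested. Fzd1 and Wnt5a lie to the right (0.81 and 0.86) and Fzd2 and Fzd8 to the left (-0.80 and -0.49) in astrocytes, while no point of microglia or homogenate is filled.

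The other genes of the pathway are given by list, beside the 5.13% of all genes that passed in astrocytes (2.91% higher and 2.22% lower). These lists too were chosen with earlier results of these data known, so their counts are a description only. In astrocytes 4 of 17 other Wnt ligands passed the filter and 1 fell, Wnt6, from 4.45 to 1.89 CPM (log2 fold change -1.25, standard error 0.343, adjusted p = 0.0400). Wnt7a was at 54.5 to 89.9 CPM in control and 9.06 to 65.8 CPM in CIE mice and missed the threshold in astrocytes (-0.95, standard error 0.307, adjusted p = 0.0767). In homogenate its values were 13.1 to 18.5 and 5.56 to 14.7 CPM (-0.65, standard error 0.159, adjusted p = 0.0999). No CIE mouse reached the control median of Wnt7a in either preparation.

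Of the 10 co-receptors and other Wnt receptors tested in astrocytes 1 rose, Lgr6, a receptor of R-spondins, from a mean of 39.8 to 52.3 CPM (0.40, standard error 0.113, adjusted p = 0.0465), and the median of the list was 0.01. The co-receptors Lrp5 and Lrp6 had log2 fold changes of 0.01 and -0.03. Among agonists of the receptors other than Wnt, 0 of 2 tested passed, as did 0 of 2 genes of ligand secretion (Porcn and Wls), 0 of 7 secreted and surface inhibitors and 0 of 16 genes of cytoplasmic transduction, which include beta-catenin (Ctnnb1, -0.16, adjusted p = 0.456).

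Among nuclear factors 3 of 12 fell and 0 rose in astrocytes, and the list's median was -0.21. They were Bcl9l (129 to 101 CPM, log2 fold change -0.36, adjusted p = 0.0153) and Pygo2 (-0.25, adjusted p = 0.0301), which are co-activators bound through beta-catenin, and the co-repressor Tle4 (-0.29, adjusted p = 0.0459). Among 11 target genes of the pathway 0 passed, with a median of -0.16. Axin2, a feedback inhibitor and the usual readout of beta-catenin activity, was at 58.4 to 91.8 CPM in control and 49.9 to 75.3 CPM in CIE astrocytes (-0.30, standard error 0.107, adjusted p = 0.109), and Nkd1, another feedback inhibitor, had a log2 fold change of 0.07 (adjusted p = 0.733). In the planar cell polarity list 1 of 9 fell, Celsr1, an atypical cadherin of that branch, which was at 56.8 to 112 CPM in control and 32.7 to 63.8 CPM in CIE mice (-0.81, standard error 0.137, adjusted p = 0.00433).

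In microglia 1 gene of these lists passed, Daam2, a formin of the planar cell polarity branch, at 37.1 to 95.5 CPM in control and 57.5 to 195 CPM in CIE libraries (1.03, standard error 0.215, adjusted p = 0.0116). Of the 8 planar cell polarity genes tested in microglia, 7 had log2 fold changes above 0 (median 0.43), 4 with an unadjusted p under 0.05. Daam2 stood at 634 to 950 CPM in control astrocytes. In microglia libraries astrocyte markers had a median log2 fold change of 0.02 and oligodendrocyte markers 0.71. The part of other cells in the rise of Daam2 was not tested. In homogenate none of these pathway lists held a called gene.

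**Figure D5:**
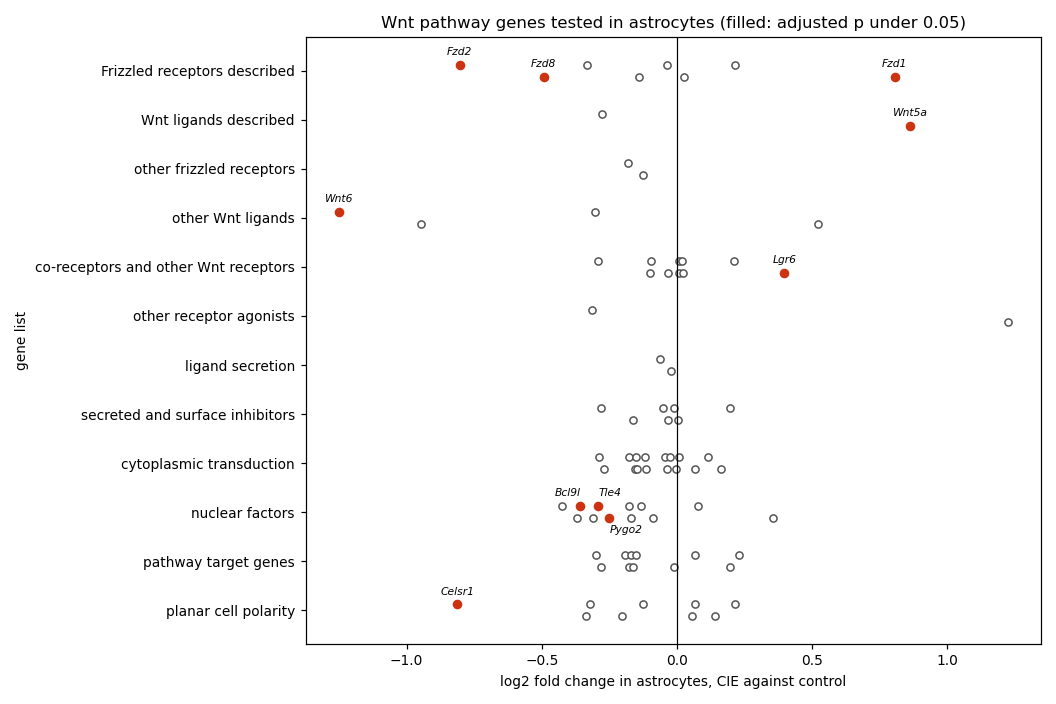
Log2 fold change in astrocytes of each gene tested, by pathway list, 1 point per gene, filled and named where the adjusted p was under 0.05. The 4 called Frizzled and Wnt genes lie on both sides of 0, and the called genes of the other lists are Wnt6, Lgr6, Bcl9l, Pygo2, Tle4 and Celsr1.

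The genes whose pattern over the 51 libraries was most like that of each receptor or ligand were found among 14300 genes by the root mean square difference of centred log2 CPM. For Fzd1 they were Acsl3, Prodh and Cyp7b1 (0.487 to 0.530, against a median of 2.0 over all genes), and for Fzd2 Tlcd1, Entpd2 and Ppap2b (0.490 to 0.525, median 2.22). For Fzd9 they were Adora2b, Fam69c and Fam198a (0.480 to 0.489, median 1.99). Wnt7b had the closest neighbours relative to its median, Cspg5, Fads2 and Gabrb1 (0.297 to 0.393, median 2.27), and Fzd3 lay near Cntn1 and Slc4a8 (0.362 and 0.364, median 1.89). Fzd4 was nearest to Sgms1, Wls and Rdx (0.267 to 0.295), Fzd5 to Crybg3, Foxn3 and Notch1 (0.415 to 0.435), Fzd7 to Zdhhc20, 5031439G07Rik and Nde1 (0.346 to 0.358) and Fzd8 to Tspan9, Rhbdf1 and Cdc42ep4 (0.356 to 0.379). Wnt5a was nearest to Gdpd5 at 0.479, with Wdr19 and Sulf2 at 0.582 and 0.583 (median 1.13).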

How the data were processed

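Per the study's methods and labels, reads were made with bcl2fastq 2.17 and trimmed by Cutadapt 1.8, mapped to mm10 by STAR 2.5.0a, cleared of duplicates by Picard 1.141 and counted by HTSeq 0.6.1p1. The authors deposited these raw counts per gene symbol. The strand setting and the annotation of the counting are not given in the sources used here. Rows that name no gene were left out and held 23.2% to 52.3% of the counts of astrocyte libraries, 30.8% to 67.1% of microglia libraries and 22.1% to 54.7% of homogenate libraries. Samples that the authors excluded were not analysed here.

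Groups came from the sample labels. Each preparation was fitted on its own by the quasi-likelihood test of edgeR 4.0.16 under R 4.3.3 after TMM scaling and the filterByExpr filter, with Benjamini-Hochberg adjustment over all genes tested and a threshold of 0.05. Standard errors are the log2 fold change over the square root of F, and intervals span 2 standard errors. Preparations of control mice and interaction terms were tested in models of 24 and 51 libraries. DESeq2 1.42.0, RLE scaling, no filter, the number range as covariate, a single model, leaving out each mouse and a replicate block were alternatives. Leaving out a number range was added after seeing the data. The fit was tested on simulated data.

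The 3 preparations of a mouse are paired by animal, per the sample names, and the median correlation of their deviations from group means was 0.163 (astrocytes and microglia), 0.0896 (astrocytes and homogenate) and 0.0533 (microglia and homogenate).

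The genes and pathway lists were chosen with earlier results of these data known. Named genes were the 10 genes in each preparation, Fzd6, Fzd10 and Wnt7a for their levels, up to 4 called genes of each pathway list with the smallest adjusted p, Axin2 and Nkd1, and the 3 genes most like each of the 10, of which 1 is not reported here. Lrp5, Lrp6, Ctnnb1, the test of Wnt7a and the marker genes were named after their values were seen. Exon lengths, coordinates and coding sequences were taken from GENCODE M21 and GRCm38, and sequences were aligned with Biopython 1.88 in Python 3.11.15. Plots were drawn with matplotlib 3.10.9.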

Additional observations from a re-analysis of the deposited data

Results flagged for a closer look

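Of 60 groups of 8 or 9 libraries, 2 held a library far from the others by Dixon's test at the 95% level, and chance flags about 1 in 20 groups. Both were CIE mouse 23 in microglia, the shallowest of the 51 libraries with 571878 counts. Fzd3 was at 23.5 CPM (14 counts) there and at 4.33 to 11.3 CPM in the other CIE microglia libraries. Wnt7b was at 5.04 CPM there, which in that library is the CPM of only 3 counts, and the next highest CIE library was at 2.19 CPM.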

How the results depend on the processing

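In astrocytes Fzd1, Fzd2 and Wnt5a were called without each of the 17 mice in turn, with DESeq2, with RLE scaling, with no filter, with the number range as a covariate and in 1 model of all 51 libraries. Fzd8 lost its call in that model (log2 fold change -0.49, adjusted p = 0.0522), which left 1 gene called lower. Among all genes that model called 284 higher and 213 lower, against 375 and 286 in the main fit of astrocytes alone. Leaving out 1 mouse gave 1 to 3 genes called lower, with 3 where Fzd5 was added and 1 without CIE mouse 26. Without CIE mouse 26, 205 of all genes were called higher and 149 lower. Without mice 19 to 26, 0 were called higher and 0 lower, and without mice 35 to 41, 1 was called higher and 1 lower, with Fzd1 at 0.89 (adjusted p = 0.0639) and Fzd8 at -0.57 (adjusted p = 0.0654). These fits hold fewer mice. Among all genes, 0 were called higher and 0 lower without mice 19 to 26, and 111 higher and 56 lower without mice 35 to 41. In microglia 1 gene, Wnt5a, was called higher with DESeq2, with no filter, in the model of all libraries and without mice 03 to 08. Among all genes, 494, 309, 633 and 514 were called higher in these fits in turn, against 249 in the main fit of microglia.

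The replicate block by mouse changed no call in the comparisons between preparations, where 8 and 2 of the 10 genes stayed higher and lower in control astrocytes than in homogenate. With the block the difference in response reversed for Fzd1 between microglia and homogenate (-0.0052) and for Fzd4 between microglia and astrocytes (0.029), and neither was called.

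Other reversals were of genes with no call. In astrocytes without mice 19 to 26 Fzd3 was at 0.016 and Fzd4 at 0.12, and without mice 35 to 41 Fzd9 was at -0.15. In microglia the number range as covariate gave 0.029 for Fzd4 and -0.026 for Fzd5, the model of all libraries -0.013 for Fzd5, leaving out mice 03 to 08 -0.046 for Fzd5 and -0.10 for Fzd8, leaving out mice 19 to 26 -0.47 for Fzd5, and leaving out mice 35 to 41 0.20 for Fzd4. In homogenate without mice 19 to 26 Fzd1 was at -0.041, Fzd5 at -0.011, Fzd7 at -0.060 and Wnt7b at 0.015, and without mice 35 to 41 Fzd5 was at -0.044 and Fzd8 at 0.0056. Leaving out 1 mouse gave -0.11 to 0.017 for Fzd4 and -0.062 to 0.10 for Fzd9 in astrocytes, -0.13 to 0.095 for Fzd4, -0.16 to 0.14 for Fzd5 and -0.0048 to 0.29 for Fzd8 in microglia, and -0.086 to 0.17 for Fzd5 and -0.15 to 0.0087 for Fzd8 in homogenate. The cause was not tested. In microglia 5 of the 10 genes fell below the filter on low counts; the part of library depth in this was not tested.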
